A study of Anolis sagrei with 15 samples.

Results

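The genes of the cytoplasmic ribosomal proteins were described in RNA-seq libraries from the developing eye of the brown anole, *Anolis sagrei*. A gene model was taken as a member when its symbol had the form of a large subunit (RPL), small subunit (RPS) or stalk (RPLP) protein, or was RPSA, and every gene model of a repeated symbol was kept. The rule used symbols alone and no measured value. It found 100 members among the 20235 gene models of the count table, under 73 distinct symbols. The form also admitted RPL3L, RPL7L1 and RPL22L1, which are paralogs of core ribosomal proteins. Of 77 core ribosomal protein symbols listed for comparison, 70 were found: 39 of 43 of the 60S subunit, 28 of 31 of the 40S subunit and the 3 stalk proteins. RPL32, RPL35, RPL39, RPL41, RPS7, RPS23 and RPS29 were not analysed here. The table stops without a closing line break, so further gene models may be lacking, in which case the member counts are lower bounds and the read shares are of the listed gene models.

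The libraries came from the posterior globe, the back of the eye that holds the retina, the pigment epithelium and the tissues around them. Embryos at Sanger stage 16.5, of mixed sex and from wild-caught parents, gave central, nasal and temporal pieces, with 5 libraries from each region. No treatment, mutation or transgene was involved, and the study's methods state that the tissue of a sample was pooled from 3 embryos. The adult retina of this lizard has a fovea in its central and in its temporal part, so the nasal region is the one without.

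Each cytoplasmic ribosome has a small 40S subunit, which decodes the messenger RNA, and a large 60S subunit, which joins amino acids. In vertebrates the messenger RNAs of these proteins begin with a run of pyrimidines, through which the mTORC1 pathway sets how well they are translated, and MYC family factors raise their transcription and that of the genes for ribosome assembly. Growing and dividing cells make many ribosomes, and retinal progenitors are such cells.

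The libraries held 15177438 to 27035312 counted reads. Of the members, 91 had reads in every library and 93 passed the filter on low counts, among 15910 gene models tested. The central replicate 4 library had reads on 14994 gene models and the other central libraries on 17603 to 18617, and its summed CPM (counts scaled to a library total of 1000000) of cartilage and sclera markers was 768.2, the highest of the central range of 198.5 to 768.2. Libraries with the same replicate number in different regions deviated together from their region means, so a fit with the number as a block is given beside the member results it changed. Nothing in the labels says that the 5 libraries of a region came from separate pools, so the tests measure the spread between these libraries.

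Ribosomal protein transcripts took the highest share of reads in the nasal region and the lowest in the temporal region. The members held 3.04%, 3.37%, 2.92%, 3.20% and 4.03% of the counted reads in nasal replicates 1 to 5, with a mean of 3.31% ± 0.434 (SD, n = 5). The shares in temporal replicates 1 to 5 were 2.48%, 2.60%, 2.25%, 2.54% and 2.46%, with a mean of 2.47% ± 0.132 (SD, n = 5). Every nasal library lay above every temporal library. In central replicates 1 to 5 the shares were 2.44%, 3.09%, 2.32%, 3.42% and 3.09%, with a mean of 2.87% ± 0.470 (SD, n = 5), and these libraries overlapped with both other regions. Within pairs of the same replicate number, nasal was above temporal in 5 of 5, nasal above central in 4 of 5 and central above temporal in 4 of 5. In such bulk tissue, fewer cells of a type and less RNA per cell cannot be told apart.

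**Figure D1:**
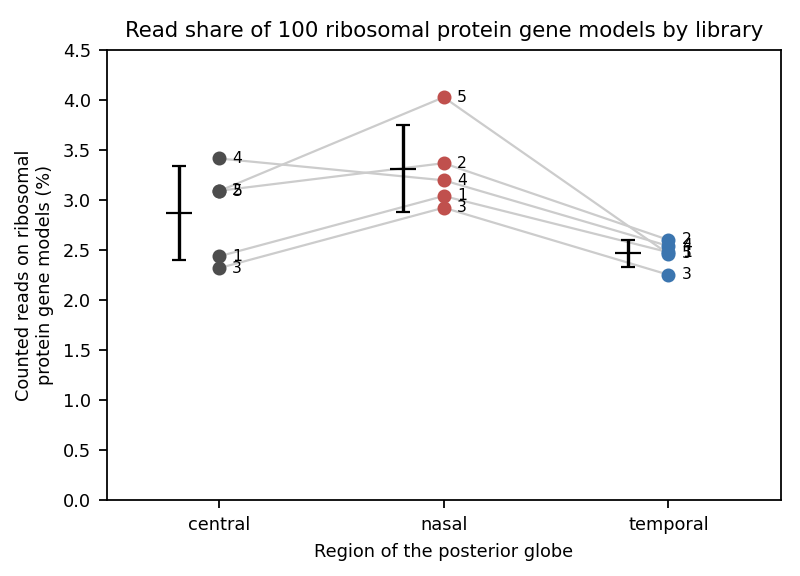
Percent of counted reads on the 100 ribosomal protein gene models (y axis) in each library by region (x axis), with replicate numbers beside the points, grey lines joining libraries of the same number, and black marks for the mean and SD of 5 libraries. The nasal libraries lie between 2.92% and 4.03%, all above the temporal libraries at 2.25% to 2.60%.

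Both subunits and the stalk had the same order of mean shares. The core 60S gene models held 1.77% ± 0.239 of reads in nasal, 1.55% ± 0.256 in central and 1.32% ± 0.0682 in temporal libraries (SD, n = 5 each). For the core 40S gene models the shares were 1.36% ± 0.182, 1.17% ± 0.191 and 1.01% ± 0.0581 in the same order. The stalk gene models held 0.175% ± 0.0152 in nasal, 0.148% ± 0.0238 in central and 0.133% ± 0.00805 in temporal libraries. In all 3 groups every nasal library was above every temporal one, as the lowest nasal shares of 1.56%, 1.20% and 0.159% against highest temporal shares of 1.38%, 1.07% and 0.145% show.

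Nasal against temporal was the comparison with the most members called. Between these regions 24 of 93 tested members were lower in temporal and 0 were higher at an adjusted p under 0.05 (edgeR quasi-likelihood test, Benjamini-Hochberg adjustment). An unadjusted p under 0.05 was found for 65 of the 93, against 2838 of all 15910 gene models tested. Among all gene models tested, 2.19% were called lower in temporal and 4.4% higher. The median log2 fold change, temporal minus nasal, was -0.48 over the members and -0.01 over all gene models tested, and 92 of 93 members were negative. The libraries of the 2 regions did not overlap, with nasal above, for 24 members, against 3.43% of all gene models. With the replicate number as a block the count was 72 of 93, against 5.96% of all gene models. DESeq2 called 40 members and limma-voom 58, all lower in temporal, where these tools called 9.5% and 15.2% of all gene models in either direction.

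The 24 count depended on single libraries. It was 9 without nasal replicate 2, 11 without nasal replicate 4 and 6 without nasal replicate 5, which had the highest share of member reads. It was 9, 13, 6, 14 and 8 without temporal replicates 1, 2, 3, 4 and 5. The share of all gene models called in each of these fits is not given here. A change in the members thus cannot be told from a general change in calls. The median log2 fold change stayed between -0.56 and -0.38 under every alternative that was run. Of the calls given with values below, RPL21, RPL7, RPS18, RPS27 and RPS3 held under every alternative, while RPL12 was lost in 3 of 21, RPL22 in 4 of 20, RPS20 in 6 of 21, RPL4 in 9 of 20, RPS3A in 10 of 21 and each RPS15 gene model in 8 of 20.

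Of the 60S proteins, 12 of 47 tested gene models were lower in temporal than in nasal, against 2.19% of all gene models. RPL12 is a protein at the base of the stalk, where translation factors bind. Its level was 151, 188, 149, 177 and 204 CPM in nasal replicates 1 to 5 and 96.9, 105, 92.3, 142 and 118 CPM in temporal replicates 1 to 5. The ranges did not overlap, and the log2 fold change was -0.65 (SE 0.16, adjusted p = 0.0171, edgeR quasi-likelihood test). RPL21, a protein of the 60S subunit, had 600, 592, 570, 558 and 673 CPM in nasal and 486, 450, 442, 435 and 429 CPM in temporal replicates 1 to 5. The gap was wide against a narrow spread, with a log2 fold change of -0.42 (SE 0.08, adjusted p = 0.00438, edgeR). RPL22, which binds RNA and has been studied in T cell development in mice, had 199, 226, 194, 225 and 315 CPM in nasal and 151, 152, 150, 174 and 176 CPM in temporal replicates 1 to 5 on its main gene model. These did not overlap either (log2 fold change -0.53, SE 0.13, adjusted p = 0.0213, edgeR).

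RPL4, a protein that lines the exit tunnel of the 60S subunit, had 1050, 1250, 1017, 1168 and 1417 CPM in nasal and 825, 868, 785, 952 and 945 CPM in temporal replicates 1 to 5 on its main gene model. The regions did not overlap and the log2 fold change was -0.43 (SE 0.12, adjusted p = 0.0388, edgeR). RPL7 had 781, 797, 793, 763 and 1040 CPM in nasal and 690, 633, 588, 602 and 623 CPM in temporal replicates 1 to 5. Nasal was above temporal throughout, with nasal replicate 5 far above the rest (log2 fold change -0.41, SE 0.09, adjusted p = 0.0112, edgeR). The other 60S gene models called were RPL8, RPL36A, RPL7A, RPL10A, RPL31, RPL18 and RPL5, with log2 fold changes of -0.50 to -0.36. RPL5 binds 5S ribosomal RNA and, with it, the p53 regulator MDM2. The libraries overlapped for RPL8 and RPL7A.

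Of the 40S proteins, also 12 of 38 tested gene models were lower in temporal, against 2.19% of all gene models. RPS18, a protein of the head of the 40S subunit, had 342, 340, 306, 348 and 416 CPM in nasal and 203, 248, 226, 216 and 234 CPM in temporal replicates 1 to 5 on its main gene model. The regions did not overlap, and this member had the lowest adjusted p of the group (log2 fold change -0.64, SE 0.13, adjusted p = 0.0039, edgeR). RPS27, a zinc finger protein of the 40S subunit, had 255, 248, 208, 225 and 313 CPM in nasal and 175, 164, 159, 166 and 189 CPM in temporal replicates 1 to 5. Its libraries were also apart (log2 fold change -0.55, SE 0.12, adjusted p = 0.00987, edgeR). RPS20 had 303, 379, 298, 335 and 406 CPM in nasal and 246, 224, 174, 265 and 242 CPM in temporal replicates 1 to 5, again without overlap (log2 fold change -0.58, SE 0.16, adjusted p = 0.0295, edgeR).

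RPS3 lies where the messenger RNA enters the 40S subunit. Its main gene model had 742, 687, 663, 650 and 947 CPM in nasal and 557, 585, 529, 537 and 534 CPM in temporal replicates 1 to 5. All nasal libraries were above all temporal ones (log2 fold change -0.43, SE 0.10, adjusted p = 0.0137, edgeR). RPS3A had 819, 972, 889, 1003 and 1241 CPM in nasal and 728, 740, 646, 798 and 765 CPM in temporal replicates 1 to 5, with ranges that came close but did not cross (log2 fold change -0.42, SE 0.12, adjusted p = 0.0474, edgeR). Other 40S gene models called included RPS21, RPS12 and RPS27A, with log2 fold changes of -0.55 to -0.48, and 2 gene models of RPS15 described with the copies. RPS27A is made as a fusion with ubiquitin.

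The stalk proteins recruit and activate the factors that drive elongation. None of their 5 gene models passed the threshold between nasal and temporal (0 of 5, edgeR quasi-likelihood test), against 2.19% of all gene models called lower. An unadjusted p under 0.05 was found for 4 of the 5, against 2838 of all 15910 gene models tested. With the replicate block 5 of 5 passed, against 5.96% of all gene models called lower. RPLP1 had 245, 218, 185, 171 and 213 CPM in nasal and 82.5, 177, 132, 117 and 108 CPM in temporal replicates 1 to 5. The 2 regions crossed only at temporal replicate 2 and nasal replicate 4, and the log2 fold change was -0.74 (SE 0.24, adjusted p = 0.0721, with 0.00817 to 0.173 over the alternatives, edgeR). The main gene model of RPLP0 had 1076, 1191, 994, 1103 and 1271 CPM in nasal and 864, 954, 821, 941 and 850 CPM in temporal replicates 1 to 5. These did not overlap, with a log2 fold change of -0.35 (SE 0.10, adjusted p = 0.0559, with 0.00499 to 0.159 over the alternatives, edgeR). RPLP2 had overlapping libraries and a log2 fold change of -0.37 (SE 0.13, adjusted p = 0.0993, edgeR).

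**Figure D2:**
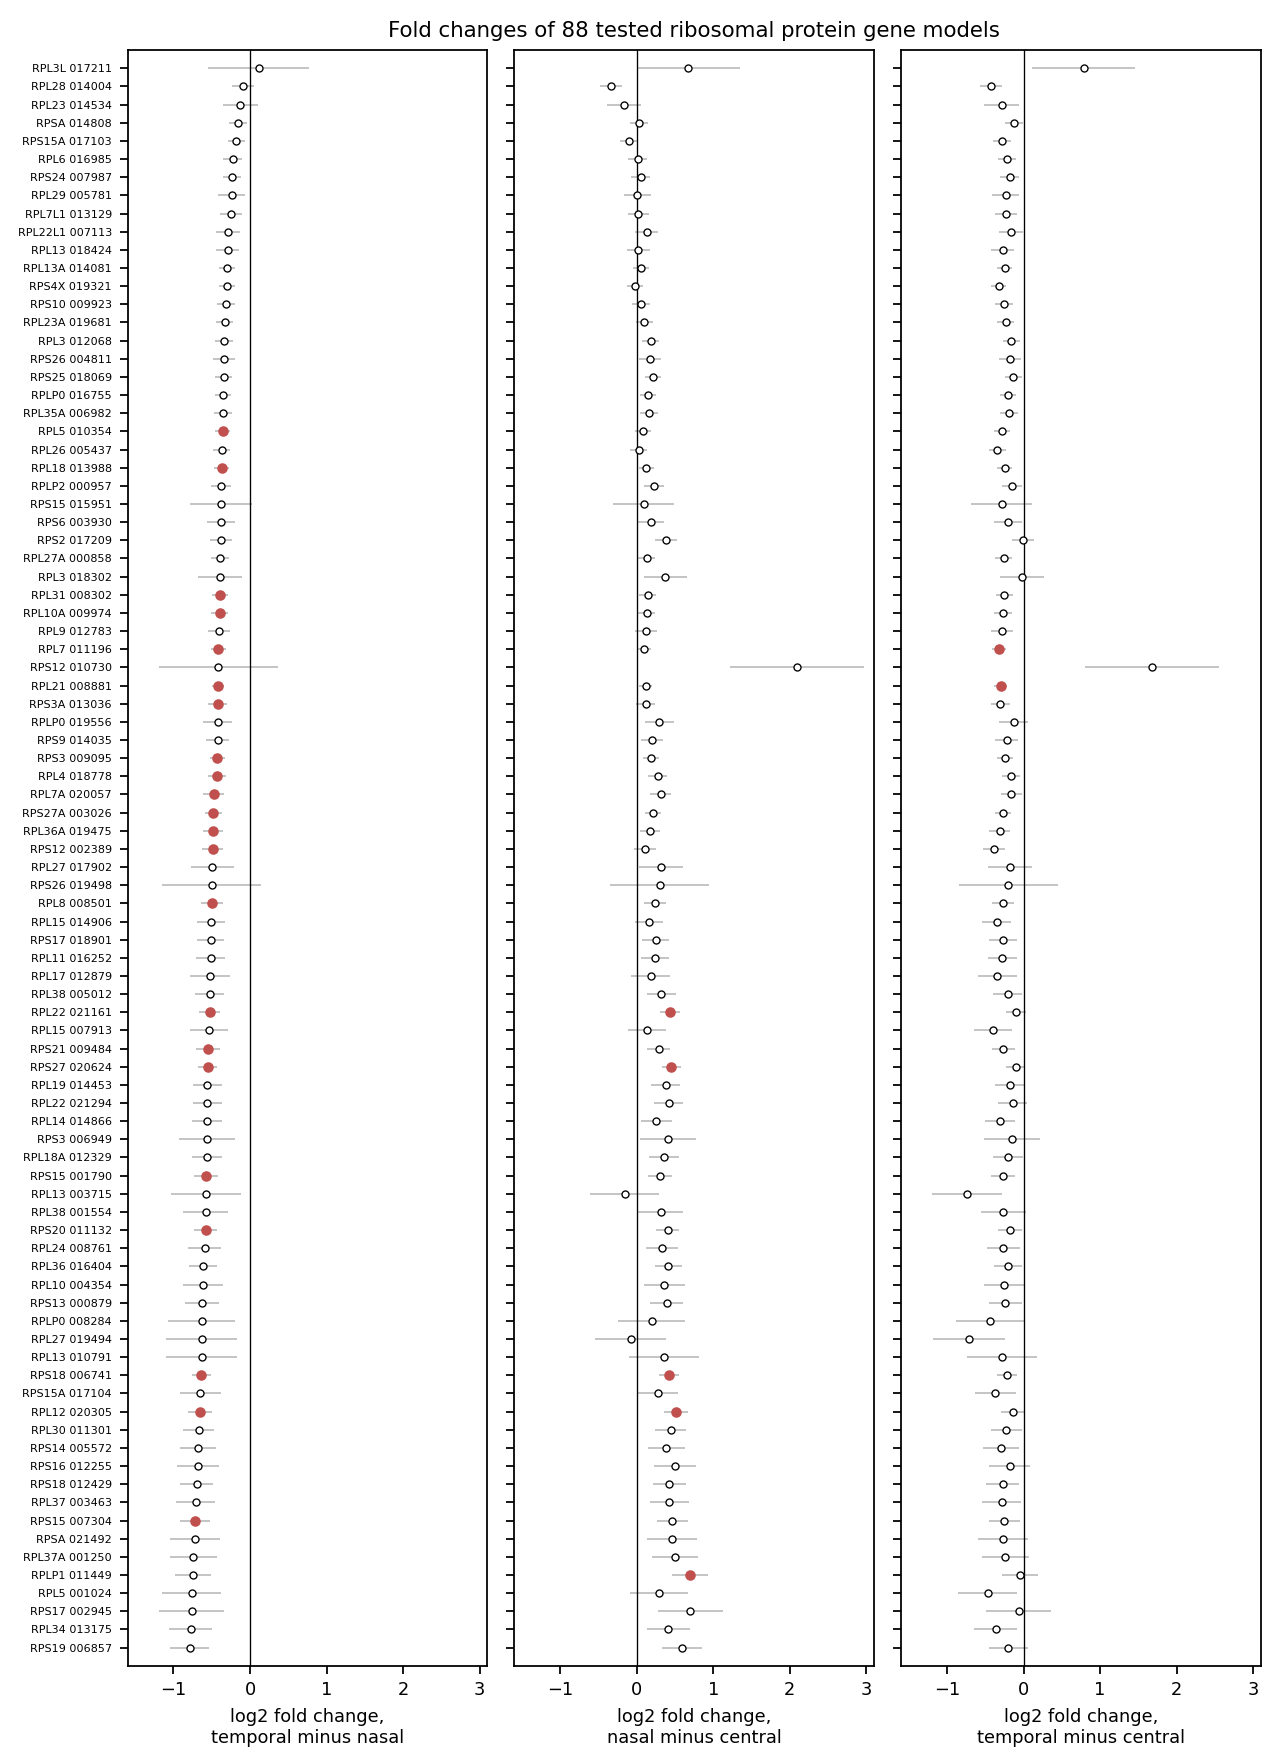
Log2 fold change (x axes) of 88 of the 93 tested ribosomal protein gene models (y axis, symbol and the end of the gene model number, ordered by the nasal to temporal value) in the 3 comparisons, with bars of 1 standard error and filled red points for an adjusted p under 0.05 in edgeR. Filled points among those drawn number 22 for temporal minus nasal, 5 for nasal minus central and 2 for temporal minus central.

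Some marker lists of the retina and of other tissues also differed between nasal and temporal. The lens list (16 gene models, 8 tested) summed to 5.76 to 8.97 CPM in nasal and 13.6 to 23.4 CPM in temporal libraries, with 2 called higher in temporal. Lens gene models at 0 reads in at least 4 of 5 libraries of a region numbered 1 in nasal, 3 in central and 2 in temporal. They were of GJA3, a lens gap junction gene, in nasal, of BFSP1, GJA3 and LIM2 in central and of LIM2 in temporal. The pigment epithelium list (16 gene models, 15 tested) summed to 1804 to 2111 CPM in nasal and 2139 to 2631 CPM in temporal libraries, with 1 called higher in temporal. The list of retinal neuron genes (30 gene models, 27 tested) summed to 5857 to 6375 CPM in nasal and 6637 to 7623 CPM in temporal libraries, with 5 called higher and 7 lower in temporal. The retinal progenitor list (23 gene models, 19 tested) overlapped at 1651 to 2192 and 1633 to 1995 CPM, with 1 called lower in temporal. None was called of cartilage and sclera (0 of 15), skeletal muscle (0 of 7), blood (0 of 7) or vessel (0 of 10). Among all gene models tested, 4.4% were called higher in temporal and 2.19% lower. The part of these tissues in the member values was not tested.

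Central against nasal gave 5 of 93 members higher in nasal and 0 lower (edgeR quasi-likelihood test, Benjamini-Hochberg adjustment). An unadjusted p under 0.05 was found for 16 of the 93, against 4767 of all 15910 gene models tested, a larger share. In this fit, which leaves out the replicate number, 7.94% of all gene models were called higher in nasal and 10.4% lower. The share of members called without the block was thus no larger than the background. The median log2 fold change, nasal minus central, was 0.22 over the members and 0.03 over all gene models, and 86 of 93 members were positive. No member had nasal libraries that were all above the central ones (0 of 93, against 5.97% of all gene models). With the replicate block 37 of 93 were higher in nasal and 0 lower, against 13.6% of all gene models higher, and 14.3% lower. DESeq2 called 5 higher and 0 lower, and limma-voom 47 higher and 1 lower, where these tools called 21.8% and 29.2% of all gene models in either direction. Among members described with values, the block also called RPS20, RPL4, both RPS15 gene models, RPLP0 ANOSAT019556 and RPSA ANOSAT021492 higher in nasal, with log2 fold changes of 0.28 to 0.49.

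RPLP1 had the largest called difference, with 86.1, 218, 76.2, 128 and 128 CPM in central replicates 1 to 5 beside the nasal values above. Central replicate 2 lay inside the nasal range and the other central libraries below it (log2 fold change 0.69, SE 0.24, adjusted p = 0.0479, with 0.00233 to 0.121 over the alternatives, edgeR), and this call was lost in 12 of 21 alternatives. RPL12 had 94.7, 113, 96.8, 173 and 134 CPM in central replicates 1 to 5 (log2 fold change 0.51, SE 0.16, adjusted p = 0.0307, edgeR). RPS27 had 155, 173, 149, 224 and 213 CPM in central replicates 1 to 5 (log2 fold change 0.45, SE 0.12, adjusted p = 0.0153, edgeR). Central replicate 4 reached the nasal range in both and central replicate 5 in RPS27. RPL22 and RPS18 on their main gene models were the other members called. In central replicates 1 to 5 RPL22 had 141, 169, 145, 194 and 210 CPM and RPS18 had 199.5, 294, 208, 333 and 273 CPM, with log2 fold changes of 0.43 (SE 0.13, adjusted p = 0.0296) and 0.42 (SE 0.13, adjusted p = 0.0245, both edgeR). RPL12, RPS27, RPL22 and RPS18 were called in both comparisons with nasal, which share the nasal libraries. Their calls from central to nasal were lost in 7 of 21 alternatives for RPL12, 1 of 21 for RPS27, 6 of 20 for RPL22 and 4 of 20 for RPS18.

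The count of 5 also depended on single libraries, again without the share of all gene models called in each fit. It was 13 without central replicate 4, 0 without nasal replicate 5, and 1 without central replicate 1 or central replicate 3. It was 3 without central replicate 2, nasal replicate 2 or nasal replicate 4. Marker lists moved between these regions too. Of 19 tested retinal progenitor gene models 7 were higher in nasal and 1 lower, with sums of 1570 to 2031 CPM in central and 1651 to 2192 CPM in nasal libraries. Of the retinal neuron list 7 of 27 were higher and 5 lower, at 5756 to 6829 and 5857 to 6375 CPM. Gene models lower in nasal were 3 of 15 of pigment epithelium (2092 to 3441 against 1804 to 2111 CPM), 3 of 15 of cartilage and sclera (198.5 to 768.2 against 274.1 to 403.8 CPM), 2 of 10 of vessel (186.1 to 316.4 against 170.7 to 207.4 CPM) and 2 of 8 of lens. Called higher in nasal were 1 of the 15 of pigment epithelium and 1 of 7 of skeletal muscle, and 0 of 7 of blood were called. Among all gene models tested, 7.94% were called higher in nasal and 10.4% lower. The lens sums did not overlap, at 13.98 to 26.1 CPM in central and 5.76 to 8.97 CPM in nasal libraries. In central replicate 4 the pigment epithelium list summed to 3441 CPM and the vessel list to 316.4 CPM, the highest of the central libraries for both, and the part of these tissues was not tested.

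Central against temporal gave 2 of 93 members lower in temporal and 0 higher (edgeR quasi-likelihood test, Benjamini-Hochberg adjustment). An unadjusted p under 0.05 was found for 19 of the 93, against 2759 of all 15910 gene models tested. Of all gene models, 3.53% were called lower and 3.24% higher in temporal, so without the replicate block the members' share was not above the background. The median log2 fold change, temporal minus central, was -0.25 over the members and 0.01 over all gene models, and 91 of 93 members were negative. No member had central libraries all above the temporal ones (0 of 93, against 3.53% of all gene models). With the replicate block 12 of 93 were lower, against 6.34% of all gene models. DESeq2 called 5 members and limma-voom 1, all lower in temporal, where these tools called 9.45% and 9.94% of all gene models in either direction. The block also called RPS4X, RPS3A and RPL28. Of the marker lists, 2 of 19 retinal progenitor gene models were higher in temporal. Of retinal neurons 3 of 27 were higher and 1 lower, and of pigment epithelium 1 of 15 was higher and 1 lower. Of lens 1 of 8 was called lower, while 6 of the 8 were positive, with a median log2 fold change of 0.88. The lens sums overlapped, at 13.98 to 26.1 CPM in central and 13.6 to 23.4 CPM in temporal libraries. None of cartilage and sclera, skeletal muscle, blood or vessel was called, and the part of these tissues was not tested.

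RPL7 had 718, 820, 687, 861 and 830 CPM in central replicates 1 to 5, and only central replicate 3 lay within the temporal range given above (log2 fold change -0.32, SE 0.09, adjusted p = 0.0481, edgeR). RPL21 had 511, 588, 461, 600 and 596 CPM in central replicates 1 to 5, and again central replicate 3 alone crossed (log2 fold change -0.30, SE 0.08, adjusted p = 0.0381, edgeR). Neither was called between central and nasal, where the log2 fold changes were 0.09 (SE 0.09) for RPL7 and 0.12 (SE 0.08) for RPL21. The count of 2 was 0 without central replicate 2, central replicate 4, or temporal replicate 3, 4 or 5, and 4 without central replicate 3. Here too the share of all gene models called in each fit is not given. Over all alternatives the call was lost in 9 of 21 for RPL7 and 11 of 21 for RPL21.

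The order of region means was the same for most members. Nasal was highest, central next and temporal lowest for 84 of 93 members, an order shown by 14.02% of all gene models tested. A further 7 had the order central, nasal, temporal. Members with a negative log2 fold change from central to nasal included gene models of RPL13, RPL28, RPL23, RPS15A, RPS4X and RPL27, and no such member was called in the fit of all 15 libraries. Of these RPL28, singled out after its values were seen, had the lowest value at -0.33 (SE 0.14, adjusted p = 0.118, with 0.0316 to 0.267 over the alternatives, edgeR), and it was called with limma-voom and without central replicate 5. It had 545, 752, 544, 522 and 417 CPM in central, 413, 432, 408, 414 and 538 CPM in nasal, and 450, 514, 416, 355 and 335 CPM in temporal replicates 1 to 5. Central replicates 1 to 4 lay above nasal replicates 1 to 4, and all regions overlapped. With the replicate block RPL28 was lower in temporal than in central (log2 fold change -0.42, adjusted p = 0.0293, with 0.0293 to 0.184 over the alternatives, edgeR).

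RPS4X, a 40S protein with a Y-linked copy in primates, had close means in central and nasal libraries. The values were 936, 1207, 932, 1088 and 883 CPM in central, 1034, 921, 920, 960 and 1131 CPM in nasal and 886, 927, 792, 728 and 694 CPM in temporal replicates 1 to 5. Nasal minus central, its log2 difference was -0.02 (SE 0.10), and temporal minus central it was -0.33 (SE 0.10, adjusted p = 0.0683, with 0.0279 to 0.134 over the alternatives, edgeR). With the replicate block RPS4X was called lower in temporal than in central (adjusted p = 0.0338) and than in nasal (adjusted p = 0.0399, with 0.0399 to 0.251 over the alternatives, both edgeR). RPL6 had log2 fold changes of 0.01 (SE 0.12) from central to nasal and -0.23 (SE 0.12, adjusted p = 0.358, edgeR) from nasal to temporal, with overlapping libraries.

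Member levels also differed between libraries of 1 region. Among the 67 members with a mean of at least 100 CPM, the median SD of log2 CPM within a region was 0.30 in central, 0.23 in nasal and 0.20 in temporal libraries. The same medians over the 2571 gene models of at least 100 CPM were 0.19, 0.16 and 0.13. Most abundant members moved in step. The correlation of a member's library deviations with the median deviation of the 67 members, over 15 libraries that share the region differences and the scaling, had a median of 0.91 and exceeded 0.8 for 48 members. The median deviation was lowest in central replicates 1 and 3 and temporal replicate 3, and highest in nasal replicate 5, as the map of member deviations shows.

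**Figure D3:**
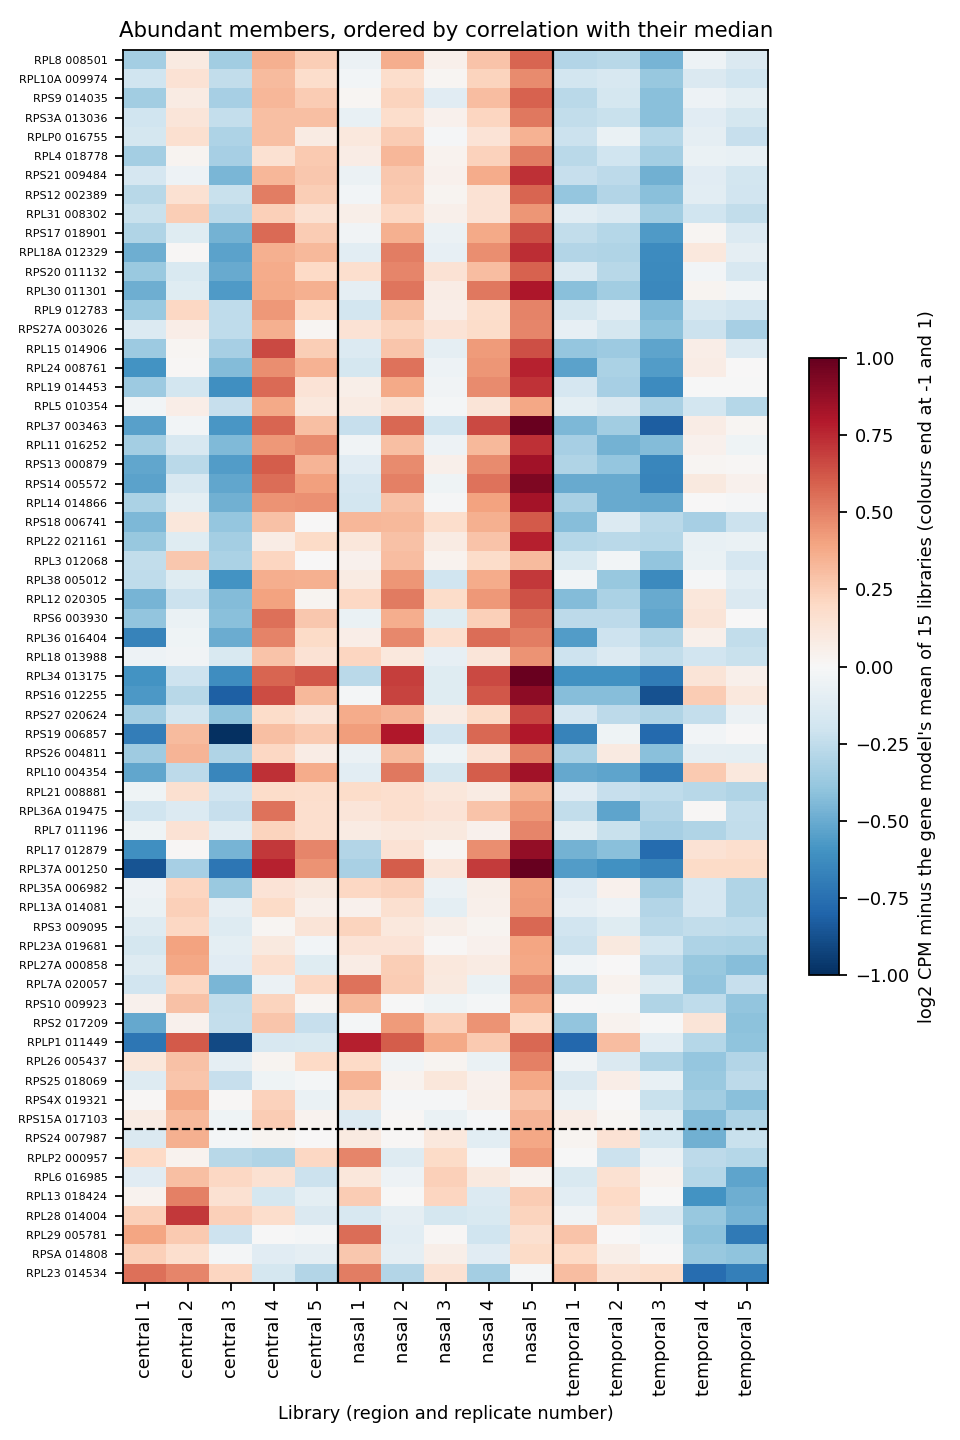
Log2 CPM minus the gene model's mean over 15 libraries (colour, ending at -1 and 1) for 64 of the 67 ribosomal protein gene models of at least 100 CPM (rows, ordered by correlation with the median of all 67) in each library (columns, grouped by region and numbered by replicate). The 56 rows above the dashed line have a correlation of at least 0.5, and the 8 below it have a lower one. Those 8 turn blue in temporal replicates 4 and 5, as do some rows above the line, such as RPS4X and RPL21.

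A smaller set did not follow. The correlation was under 0.5 for 9 abundant members, among them RPS24, RPLP2, RPL6, RPL13, RPL28, RPL29, RPSA and RPL23, and the lowest was -0.23 for RPL23. This set was formed from the values, so it is a description. Averaged over the 3 regions, the median deviation of these 9 was 0.23, 0.12, 0.02, -0.20 and -0.13 on the log2 scale in the libraries numbered 1 to 5. For the other 58 it was -0.18, 0.04, -0.22, 0.19 and 0.19, so the sets had opposite signs except in the libraries numbered 2. Averaged over the 3 libraries numbered 4, none of the 9 and 46 of the 58 had a deviation above 0, though some of the 9 were above 0 in single libraries.

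RPL23, singled out after its values were seen, and RPSA show this pattern. RPL23, a 60S protein that also binds MDM2, had 592, 565, 468, 357 and 330 CPM in central, 574, 328, 448, 318 and 398 CPM in nasal and 499, 452, 457, 238 and 250 CPM in temporal replicates 1 to 5. Replicate 1 was above replicate 4 in every region, and the regions overlapped. RPSA, the 40S protein also known as the laminin receptor, had 676, 643, 564, 528 and 538 CPM in central, 690, 539, 598, 530 and 655 CPM in nasal and 658, 598, 576, 441 and 434 CPM in temporal replicates 1 to 5 on its main gene model. Its log2 fold change from nasal to temporal was -0.15 (SE 0.12, adjusted p = 0.59, edgeR), within the spread of the libraries.

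Repeated symbols needed their copies kept apart. There were 53 symbols with 1 gene model and 20 with several, on 47 gene models: 14 symbols with 2, 5 with 3 and 1, RPS15, with 4. The symbols were given by protein similarity, so a copy may be a paralog, a processed copy, a fragment or a second model of the same locus, and reads that fit near-identical copies are uncertain. In most of the 20 symbols 1 gene model held nearly all the reads: RPLP0 had 95.4%, 3.43% and 1.18% on its gene models, RPL4 99.97% and 0.0294%, RPS18 96.7% and 3.27%, and RPSA 94.0% and 5.98%. The reads were divided more evenly for RPL27, at 65.1% and 34.9%, for RPS15, at 66.6%, 31.6%, 1.79% and 0.00342%, for RPS15A, at 72.7% and 27.3%, and for RPL38, at 73.6% and 26.4%.

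**Figure D4:**
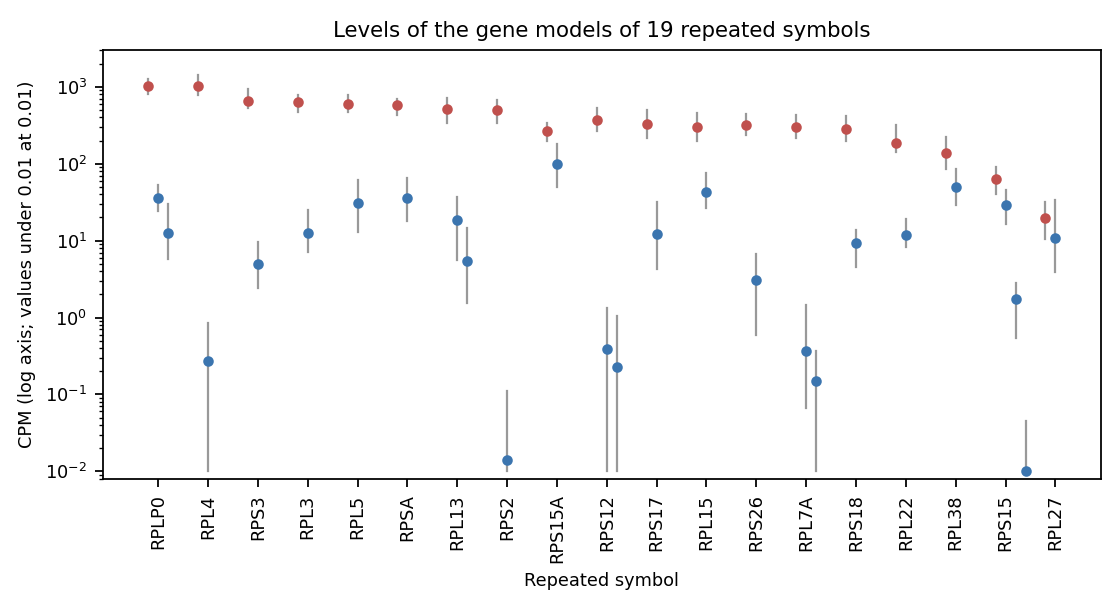
CPM (y axis, log scale, values under 0.01 drawn at 0.01) of the gene models of 19 of the 20 repeated symbols (x axis, ordered by total reads), with the mean over 15 libraries as a point and the lowest to highest library as a line. The gene model with the most reads is red and the others are blue, which for RPL27, RPS15, RPS15A and RPL38 lie closest to the red point.

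RPS15, a 40S protein near the decoding site, had 2 gene models called between nasal and temporal. The first, ANOSAT001790, had 57.6, 79.2, 75.8, 91.8 and 75.6 CPM in nasal and 46.7, 55.4, 53.1, 60.2 and 39.9 CPM in temporal replicates 1 to 5 (log2 fold change -0.57, SE 0.16, adjusted p = 0.036, edgeR). The second, ANOSAT007304, had 27.2, 40.6, 32.0, 43.2 and 46.0 CPM in nasal and 18.4, 23.9, 20.2, 27.4 and 25.0 CPM in temporal replicates 1 to 5 (log2 fold change -0.72, SE 0.20, adjusted p = 0.0369, edgeR). Each overlapped between the regions, through nasal replicate 1 alone.

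Among repeated symbols, the gene models with most reads and the others were all negative from nasal to temporal where tested. Of the 20 gene models with most reads 8 were called lower, 16 with the replicate block, and the median was -0.43. Of the other 21 tested 1 was called, the second RPS15, 12 with the replicate block, and the median was -0.58. For comparison, 15 of the 52 tested members that were the only gene model of a symbol were called lower, 44 with the replicate block, and their median was -0.44. Among all gene models tested, 2.19% were called lower, and 5.96% with the replicate block.

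The 2 gene models of RPS15A, singled out after their values were seen, have adjacent numbers and different profiles. ANOSAT017103 had 282, 334, 258, 318 and 274 CPM in central, 242, 268, 255, 265 and 338 CPM in nasal and 281, 270, 244, 197 and 215 CPM in temporal replicates 1 to 5. ANOSAT017104 had 79.7, 77.6, 61.3, 133 and 149 CPM in central, 90.4, 141, 78.2, 119 and 178 CPM in nasal and 73.0, 61.2, 49.6, 102 and 102 CPM in temporal replicates 1 to 5. In the second, replicates 4 and 5 were high in central and temporal, where the first was low in temporal, and the log2 fold changes from nasal to temporal were -0.18 (SE 0.11) and -0.65 (SE 0.27), neither called. With the replicate block ANOSAT017104 was called lower in temporal (log2 fold change -0.65, adjusted p = 0.00175, with 0.00175 to 0.475 over the alternatives, edgeR). RPSA likewise had -0.15 (SE 0.12) on its main gene model and -0.72 (SE 0.33, adjusted p = 0.247, edgeR) on ANOSAT021492, which was called with the replicate block (adjusted p = 0.00413, with 0.00413 to 0.528 over the alternatives, edgeR). The difference between copies was not tested.

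The study listed positions for homologs of genes that are X-linked in *A. carolinensis*, and of the members this covered RPL6 and RPLP0 alone. Positions of the other members were not available here. On AnoSag2.1, the assembly of the gene models, RPL6 was placed on scaffold 7 from 80580866 to 80595478. The study identifies this scaffold as the X chromosome, and the pooled embryos were of mixed sex. RPLP0 was placed at 3 sites, on scaffold 7 from 64597044 to 64604586, on scaffold 3 from 174317911 to 174318240 and on scaffold 11 from 29839565 to 29839987. These sites span 7543, 330 and 423 bases. The table of positions does not pair them with gene model numbers, so the sites were not matched to the read shares, and exon and intron limits were not used.

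The 3 paralogs did not stand out. RPL22L1, a paralog of RPL22, had 19.8, 21.1, 24.7, 26.3 and 28.4 CPM in nasal and 22.1, 15.8, 21.4, 22.5 and 16.7 CPM in temporal replicates 1 to 5, with overlap and a log2 fold change of -0.29 (SE 0.15, adjusted p = 0.352, edgeR). RPL7L1, linked to ribosome assembly, had means of 53.7 CPM in central, 54.5 CPM in nasal and 45.8 CPM in temporal libraries, with none of its comparisons called. RPL3L, the heart and skeletal muscle paralog of RPL3 in mammals, was at 0 to 1.43 CPM over the 15 libraries, and its log2 fold change of 0.11 (SE 0.66) from nasal to temporal was the only positive one of the tested members. In all, 7 members were below the filter, with 1 to 106 reads over all libraries, on gene models of RPS15, RPS2, RPS12, RPL4, RPL7A (2 of them) and RPS28. The RPS28 gene model was the only one of its symbol.

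Ribosomal proteins whose symbols lie outside the form were compared in the same fit, on 4 tested gene models. From nasal to temporal 2 were called lower and 0 higher, against 2.19% of all gene models called lower. Of the 4, 3 were negative and 1 was positive, at 0.23. From central to temporal 1 was called higher and 0 lower, against 3.24% of all gene models called higher. Its log2 fold change was 1.29, opposite in sign to the median of the members. FAU, which encodes the 40S protein eS30 fused to a ubiquitin-like protein, had 251.8 to 381.9 CPM in nasal, 124.7 to 278.4 CPM in central and 150.0 to 230.9 CPM in temporal libraries. It was higher in nasal than in central (log2 fold change 0.58, adjusted p = 0.0488) and lower in temporal than in nasal (log2 fold change -0.70, adjusted p = 0.0397, both edgeR). RACK1, a scaffold protein of the 40S subunit, was lower in temporal than in nasal, at 326.8 to 358.2 against 387.2 to 540.0 CPM (log2 fold change -0.37, adjusted p = 0.0145, edgeR).

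Other genes of ribosome production and translation were counted in the same fit. For reading these counts, 2.19% of all gene models were called lower and 4.4% higher from nasal to temporal, and 7.94% higher and 10.4% lower from central to nasal. Of 74 ribosome biogenesis gene models, under 69 symbols, 2 were lower in temporal than in nasal and 0 higher, 62 were negative and the median log2 fold change was -0.21. Those called were DKC1, the pseudouridine synthase of ribosomal RNA, at -0.44 (adjusted p = 0.018), and EBNA1BP2, a 60S assembly factor, at -0.41 (adjusted p = 0.0439, both edgeR). From central to nasal 7 of the 74 were higher and 0 lower, namely DKC1, EBNA1BP2, EMG1, BOP1 on 1 of its 3 gene models, UTP20, NOB1 and MYBBP1A. The shares of 7 and 2 among 74 lie near those backgrounds. With the replicate block 19 were higher and 1 lower from central to nasal, and 8 were lower from nasal to temporal, against 13.6%, 14.3% and 5.96% of all gene models.

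Mitochondrial ribosomal proteins belong to a separate ribosome. Of 80 gene models tested, MRPL20 was lower in temporal than in nasal (log2 fold change -0.64, adjusted p = 0.0416, edgeR), 70 were negative and the median was -0.17. From central to nasal MRPL2, MRPL17, MRPL48 and MRPS33 were higher and MRPS6 was lower, with MRPL2 and MRPL48 each called on 1 of several gene models. With the replicate block 17 were higher and 1 lower, against 13.6% and 14.3% of all gene models.

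Translation factors moved both ways. Of 42 gene models tested, 1 of EEF1G, a subunit of the factor that reloads EEF1A, was lower in temporal than in nasal (log2 fold change -0.45, adjusted p = 0.0162, edgeR). EEF2, the translocase of elongation, was higher in temporal, with 311.6 to 396.2 CPM against 253.9 to 322.3 CPM in nasal (log2 fold change 0.37, adjusted p = 0.0169, edgeR). The median over the 42 was -0.05, and with the replicate block 3 were higher and 4 lower, against 7.96% and 5.96% of all gene models. From central to nasal 1 gene model of EEF1G was higher, at 0.36 (adjusted p = 0.0279), and EEF2 and EIF4G1 were lower, at -0.39 (adjusted p = 0.0051) and -0.37 (adjusted p = 0.0401, all edgeR). With the replicate block 4 were higher and 4 lower, against 13.6% and 14.3% of all gene models.

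Among 23 tested gene models for regulators of the mTORC1 and MYC pathways, MYCN was highest in nasal libraries. MYCN, a MYC family factor of progenitors in the vertebrate retina, had 22.4 to 26.5 CPM in nasal, 10.8 to 15.2 CPM in central and 10.7 to 18.3 CPM in temporal libraries, so nasal stood apart from both. The log2 fold changes were 0.99 from central to nasal (adjusted p = 6.73e-05) and -0.77 from nasal to temporal (adjusted p = 0.00229, both edgeR). MYCN was the only regulator called between nasal and temporal without the replicate block, which added MXI1, higher in temporal, and the median of the 23 was -0.00195. Of all gene models, 2.19% were called lower and 4.4% higher from nasal to temporal without the block. With the block 5 of the 23 were higher and 4 lower from central to nasal, against 13.6% and 14.3% of all gene models. Without the block 3 were higher and 2 lower, against 7.94% and 10.4%. Besides MYCN, those higher in nasal were MYCL and 1 of the 2 gene models of RPTOR, a subunit of mTORC1. Those lower were MXI1, a repressor that competes with MYC for MAX (log2 fold change -0.71, adjusted p = 3.19e-05), and RHEB, the activator of mTORC1 (log2 fold change -0.31, adjusted p = 0.00652, both edgeR). Any relation between these genes and the members was not tested.

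**Figure D5:**
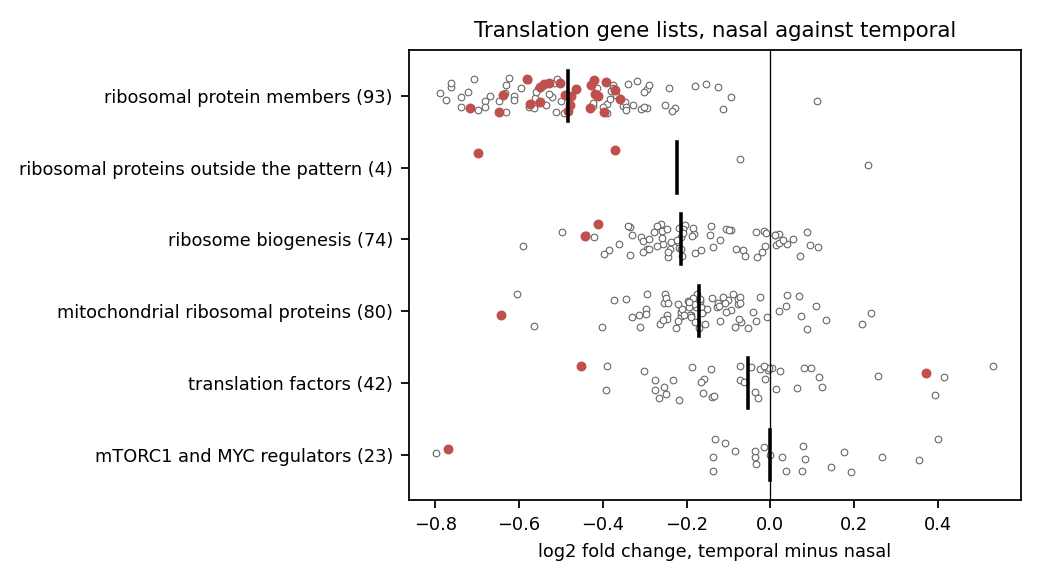
Log2 fold change, temporal minus nasal (x axis), of each tested gene model of 6 lists (y axis, number tested in brackets), with the list's median as a black line and filled red points for an adjusted p under 0.05 in edgeR; vertical scatter within a list carries no value. The median is -0.48 for the 93 members, -0.21 for 74 gene models of ribosome biogenesis, -0.17 for 80 of mitochondrial ribosomal proteins and -0.05 for 42 of translation factors.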

How the data were processed

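RNA of each region was made into libraries with the TruSeq Stranded mRNA kit. The deposited table gives, for each gene model and library, the authors' whole-number read count, not normalized. The submitters' processing notes name HISAT2 2.2.1 and featureCounts, while the sources used here do not state whether strand was counted. Counts were compared in R 4.3.3 with edgeR 4.0.16: filterByExpr by region at a minimum count of 10, TMM scaling, 1 robust quasi-likelihood fit of 15 libraries, and Benjamini-Hochberg adjustment over 15910 gene models at a threshold of 0.05. The fit was tried on simulated counts, drawn independently for each gene model and library with no replicate-number effect. That trial does not cover libraries or members that move together. Log2 fold changes are the second region minus the first. CPM values are not scaled by gene length, so levels were not compared between genes. Log2 CPM for spreads used a prior of 0.5 CPM. A value of 0 allows up to 3 reads, for counting error only.

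Same-numbered libraries correlated in their deviations from region means at 0.134 to 0.559 in all 15 pairs, and 8 of 60 other pairs passed 0.1. The labels do not say what the numbers mark. On this check they were taken to pair libraries. Libraries of 1 region differed by more than sampling noise (chi-square per degree of freedom 10.3 to 66.9 in 30 pairs). The alternatives were DESeq2 1.42.0, limma-voom with quality weights (limma 3.58.1), other scalings and filters, 2 regions only, the replicate block and leaving out each library. Members named with values were the 5 with the largest rise and the 5 with the largest fall called in each comparison, the 5 of highest mean CPM, RPSA and the stalk proteins, the paralogs, and every gene model of the 3 repeated symbols with the most reads. RPL23, RPL28 and RPS15A were added after their values were seen, and the other called members were listed by name. The members and lists were chosen with earlier results of these data known. Of the 73 symbols, 68 were in a RefSeq table, used for names alone. Some members and related genes enter the counts but are not reported here by name or drawn by name. Sequences, gene lengths and start sites were not analysed here.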

Additional observations from a re-analysis of the deposited data

Results flagged for a closer look

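In groups of 5 libraries, 6 of 102 values tested had a library farther from the others than Dixon's limit of 0.71 allows, where chance flags about 1 in 20 groups. Nasal replicate 5, the library with the highest share of member reads, stood above the other nasal libraries for RPL7 at 1040 CPM (others 762.6 to 796.8), RPL22 (ANOSAT021161) at 315.4 CPM (others 194.3 to 225.5), RPL28 at 537.9 CPM (others 408.4 to 432.3) and RPS15A (ANOSAT017103) at 337.5 CPM (others 242.2 to 268.4). Central replicate 4 had reads on 14994 gene models, and the 4 others of its region had them on 17603 to 18617. The minor gene model of RPL4 (ANOSAT013322) had 0.8535 CPM in central replicate 2 and 0 to 0.2443 CPM in the other central libraries, on 93 reads in all 15 libraries.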

How the results depend on the processing

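The median log2 fold changes of the members kept their sign under every alternative that was run, at 0.12 to 0.45 from central to nasal, -0.33 to -0.07 from central to temporal and -0.56 to -0.38 from nasal to temporal. The counts of members called did not hold as well. Apart from DESeq2, limma-voom and the replicate block, they are given without the share of all gene models called in the same fit. From central to nasal the 5 called became 48 with limma-voom, 1 with 2 regions only, 37 with the replicate block and 0 to 13 with a library left out. From central to temporal the 2 called became 5 with DESeq2, 1 with limma-voom, 0 with no filter on low counts, 12 with the replicate block and 0 to 4 with a library left out. From nasal to temporal the 24 called became 40 with DESeq2, 58 with limma-voom, 46 with 2 regions only, 72 with the replicate block, 6 to 28 with a library left out, and 15 without both central replicate 4 and nasal replicate 5, an alternative chosen after seeing the data. The causes were not tested. Signs of small values that were not called turned as follows. With limma-voom, RPSA (ANOSAT014808) was -0.086 from central to nasal, RPL23 was 0.00023 from nasal to temporal, and from central to temporal RPLP1 was 0.13, RPL12 0.043, RPS27 0.056, RPL22 0.031, RPS15 (ANOSAT007304) 0.0025, RPS20 0.037, RPLP0 0.12 (ANOSAT008284) and 0.0076 (ANOSAT019556), and RPSA (ANOSAT021492) 0.037. Without both libraries, RPSA (ANOSAT014808) was -0.038 and RPL7L1 -0.015 from central to nasal, and RPL12 was 0.018, RPLP0 (ANOSAT008284) 0.12 and RPSA (ANOSAT021492) 0.045 from central to temporal. With a library left out the ranges that crossed 0 were, from central to nasal, RPL6 -0.054 to 0.053, RPL7L1 -0.079 to 0.096, RPS4X -0.073 to 0.030 and RPSA (ANOSAT014808) -0.022 to 0.085, from central to temporal, RPL12 -0.26 to 0.018, RPLP0 (ANOSAT008284) -0.82 to 0.12, RPLP1 -0.21 to 0.22, RPS3 (ANOSAT006949) -0.43 to 0.029 and RPSA (ANOSAT021492) -0.45 to 0.045, and from nasal to temporal, RPL23 -0.25 to 0.022 and RPL3L -0.13 to 0.40. Gene models of few reads, such as RPL3L at 0 to 1.43 CPM, were limited by depth.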
